A study of Mus musculus with 18 samples.

Results

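Fgfbp1, a secreted carrier of fibroblast growth factors (FGFs), was examined on microarrays of retinoid-inhibited collecting duct cells, together with its family member Fgfbp3, the receptors Fgfr1, Fgfr2, Fgfr3 and Fgfr4, and the ligands Fgf1, Fgf2 and Fgf9. The 9 genes were found by their symbol in the annotation of the array. Each was measured by 1 transcript cluster, a set of probes summarised as 1 level, so that they made up 9 of the 23410 clusters with a gene symbol. Of these 23410, 1621 carried several symbols, and some genes had more than 1 cluster. Fgfbp1 was chosen by its levels in the DEAB experiment, where the gene shortlist of the study holds it, and its values there are therefore a description without a test. The other 8 genes were taken as its partners in FGF signalling.

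mIMCD-3 is a cell line from the inner medullary collecting duct of the mouse kidney, and every group was made from this 1 line. In the AGN193109 experiment the groups were 1 µM AGN193109 with 0.2 µM all-trans retinoic acid (tRA), 1 µM AGN193109 alone, and vehicle (0.1% ethanol with 0.1% DMSO). In the DEAB experiment they were 25 µM DEAB with 0.01 µM tRA, 25 µM DEAB alone, and the same vehicle. All treatments lasted 24 h, and each group held 3 independent biological replicates, which gave 18 arrays in all. AGN193109 is an antagonist of all retinoic acid receptors (RARs), whereas DEAB blocks the aldehyde dehydrogenases that turn retinaldehyde into tRA. The comparisons ask which genes respond when endogenous retinoid signalling is blocked at the receptor or at synthesis, and whether added tRA reverses that response. The tRA dose differed between the experiments.

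Array medians lay between 7.23 and 7.33 on the log2 scale in the AGN193109 experiment and between 7.48 and 7.51 in the DEAB experiment, and levels were not compared across experiments. Arrays of the same replicate number shared deviations within each experiment. The epithelial genes Cdh1, Epcam, Krt8 and Krt18 ranked at percentile 87.8 to 99.2 of all clusters, a rank that also depends on the probes. They were the highest of 12 collecting duct and epithelial markers, whose median rank was 49.5 (AGN193109 arrays) and 47.55 (DEAB arrays). Of these 12, 5 ranked above percentile 50 in both experiments. The collecting duct water channel Aqp2 ranked at percentile 50.1 and 49 in the AGN193109 and DEAB experiments, and the sodium channel genes Scnn1b and Scnn1g ranked at percentile 14.9 to 19.1. The median ranks of fibroblast, endothelial and blood markers were 27, 28.1 and 32.55 in the AGN193109 experiment. On the DEAB arrays they were 29.4, 18.9 and 29.65. Among these, 1 of 7 fibroblast markers (Col1a1, 52.7 and 51.7) ranked above percentile 50 in both experiments. So did 1 of 4 blood markers (Cd68, 62.7 and 56.1), but none of the 5 endothelial markers.

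FGFs are secreted proteins that bind heparan sulfate chains at the cell surface and in the matrix, where they are stored and where they assemble with their receptor tyrosine kinases. FGF binding proteins take FGFs from this store and carry them to receptors. In the developing kidney, FGFs of the surrounding mesenchyme act on epithelial Fgfr2 to drive growth and branching of the ureteric bud, from which the collecting duct arises. In human squamous carcinoma cells, retinoic acid is known to lower the mRNA of FGFBP1.

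The promoter of Fgfbp1 is shown because it is the gene to which the other 8 were taken as partners, and in the DEAB experiment its group means spanned more than those of any other member. Fgfbp1 lies on chromosome 5 of the mouse genome (GRCm38.p6, 43978858 to 43981828, minus strand). RefSeq windows were found for 7 of the 9 genes, with 8 windows in all, and Fgfr1 and Fgf1 had none. The 250 bases before the start site listed for this window are chr5:43981800-43982049, read 5′ to 3′ on the minus strand. The last 29 of these bases lie inside the RefSeq gene record, which reaches further upstream than the listed start. Capitals mark a CCAAT box and the sequence CCACACCC, both read on the strand opposite to the gene.
Fgfbp1: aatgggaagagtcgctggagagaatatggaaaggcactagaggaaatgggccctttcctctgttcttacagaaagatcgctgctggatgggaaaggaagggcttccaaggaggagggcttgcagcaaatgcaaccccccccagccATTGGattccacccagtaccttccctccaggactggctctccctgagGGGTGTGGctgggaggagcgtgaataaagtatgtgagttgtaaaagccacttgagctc

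CCAAT lay 101 to 105 bases and CCACACCC 51 to 58 bases before the listed start. These 2 sequences were chosen after the window had been read, and they occurred on either strand in 33.8% and 3.2% of the 32851 RefSeq windows of the same length. The core hexamer of retinoid receptor sites was searched on both strands in its form AGGTCA and its variants AGTTCA as well as GGGTCA and also GGTTCA, alone and as direct repeats with spacers of 1, 2 or 5 bases. None of these was found in the Fgfbp1 window. The hexamer alone occurred in 38.6% of all windows and the repeats, which contain it, in 0.164%, 0.174% and 0.0883%. Nor were the AP-1 sequence TGANTCA (6.75% of windows), TATAAA (12.4%) or CCGCCC (32.7%) found in it. A single hexamer was found in the windows of Fgf2, Fgfr2 and Fgfbp3 and in 1 of 2 windows of Fgfr3. A window without a match says only that these letters are not in these bases.

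In the DEAB experiment, Fgfbp1 was lowest with DEAB and tRA, highest with DEAB alone and between these in vehicle. Its log2 levels in replicates 1, 2 and 3 were 8.52, 8.44 and 8.48 with DEAB and tRA, 9.68, 9.2 and 9.45 with DEAB, and 9.05, 8.86 and 8.72 with vehicle. The 3 groups did not overlap, and the 3 arrays with tRA lay closer together than those of the other groups. Over all clusters, groups did not overlap in 3.27% (higher with DEAB than with vehicle), 4.54% (lower with DEAB and tRA than with DEAB) and 3.34% (lower with DEAB and tRA than with vehicle), and nothing is read from these shares for Fgfbp1. The means were 8.48 ± 0.04, 9.44 ± 0.24 and 8.88 ± 0.17 in that order (SD, n = 3 each). Markers of other cell types were set beside these values. The mean log2 level of the 7 fibroblast markers was 6.78 to 6.94 with DEAB and tRA, 6.71 to 6.79 with DEAB and 6.69 to 6.76 with vehicle. For the 5 endothelial markers it was 6.01 to 6.13, 5.96 to 6.04 and 5.95 to 5.98 in the same groups. For the 4 measured blood markers it was 6.92 to 7.1, 6.98 to 7.13 and 6.94 to 7.03, and these groups overlapped. The part of these markers in the result was not tested.

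By replicate number, DEAB alone exceeded vehicle by 0.63, 0.34 and 0.73 log2 units, with a mean of 0.57 ± 0.2 (SD, n = 3) or 1.48-fold. DEAB with tRA differed from DEAB alone by -1.16, -0.76 and -0.97, with a mean of -0.97 ± 0.2 (SD, n = 3) or 0.512-fold. DEAB with tRA differed from vehicle by -0.54, -0.42 and -0.24, a mean of -0.4 ± 0.15 (SD, n = 3) or 0.758-fold. With tRA added, Fgfbp1 was therefore below the vehicle level in all 3 replicates, and not only below the level with DEAB.

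**Figure D1:**
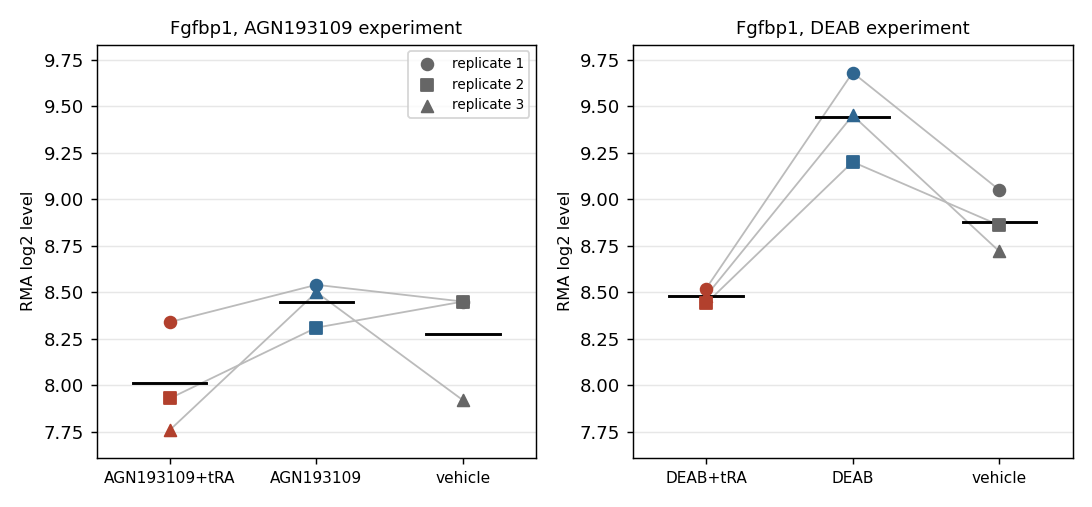
RMA log2 level of Fgfbp1 on each array (vertical axis) in the groups with inhibitor and tRA, inhibitor alone and vehicle, with the AGN193109 experiment on the left and the DEAB experiment on the right. Grey lines join arrays of the same replicate number and black bars are group means of 3 arrays. The vehicle points of replicates 1 and 2 on the left coincide at 8.45, and the 3 groups on the right do not overlap, with 8.44 to 8.52 for DEAB and tRA, 9.2 to 9.68 for DEAB and 8.72 to 9.05 for vehicle.

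In the AGN193109 experiment Fgfbp1 did not pass the test in any comparison, and its groups overlapped. The levels were 8.34, 7.93 and 7.76 with AGN193109 and tRA, 8.54, 8.31 and 8.5 with AGN193109, and 8.45, 8.45 and 7.92 with vehicle. The vehicle arrays, with replicate 3 below the other two, overlapped those of both other groups. The group means were 8.01 ± 0.3, 8.45 ± 0.12 and 8.27 ± 0.31 in that order (SD, n = 3 each).

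AGN193109 alone differed from vehicle by 0.09, -0.14 and 0.58 in replicates 1, 2 and 3, a mean of 0.18 (SE 0.18) with an adjusted p of 1.0000 in limma, a linear model fitted to all clusters, after Benjamini-Hochberg adjustment. Adding tRA to AGN193109 gave differences of -0.21, -0.38 and -0.74 and a mean of -0.44 (SE 0.18), or 0.735-fold. Its adjusted p in limma was 1.0000, or 0.6669 with replicate number as a block. AGN193109 with tRA differed from vehicle by -0.12, -0.52 and -0.16, a mean of -0.26 (SE 0.18, limma, adjusted p = 1.0000). The arrays with tRA thus lay below those with the inhibitor alone in every replicate of both experiments. The DEAB replicates had entered its choice. In the AGN193109 experiment alone, 13.7% of all clusters were lower in all 3 replicates when tRA was added, and 2 of the 9 members, Fgfbp1 and Fgf1, were among them.

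The difference between the experiments in these effects was measured over the 18 arrays. The effect of AGN193109 minus that of DEAB was -0.39 (SE 0.23, or 0.17 with replicate number as a block). The effect of tRA added to AGN193109 minus that of tRA added to DEAB was 0.52 (SE 0.23, or 0.17 with the block). No p is given for Fgfbp1 here, because the DEAB arrays enter both values.

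Over all 9 genes, few calls were made, a call being an adjusted limma p under 0.05 over all clusters. With AGN193109 against vehicle no member was called, where 0.0683% of all clusters were, and with AGN193109 and tRA against AGN193109 none was called against 0.0214% of all clusters. AGN193109 with tRA against vehicle gave no call among the 23410 clusters, of which 418 had an unadjusted limma p under 0.05, and 1 call with the replicate block. With DEAB against vehicle no member was called, where 0.0342% of clusters were. With DEAB and tRA against DEAB, 1 of the 9 members was called, against 0.325% of clusters. That member was Fgfbp1, whose values in this contrast chose it, so the count is no test and nothing is read from it, and none of the other 8 was called. DEAB with tRA against vehicle gave no call in the whole table, where 1403 clusters had an unadjusted limma p under 0.05, and 5 calls with the replicate block. No member other than Fgfbp1 was called in any of the 6 comparisons, with or without the block. The shares of all clusters called with the block were 0.457% (AGN193109 against vehicle), 0.0812% (AGN193109 and tRA against AGN193109), 0.00427% (AGN193109 and tRA against vehicle), 0.303% (DEAB against vehicle), 1.5% (DEAB and tRA against DEAB) and 0.0214% (DEAB and tRA against vehicle).

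**Figure D2:**
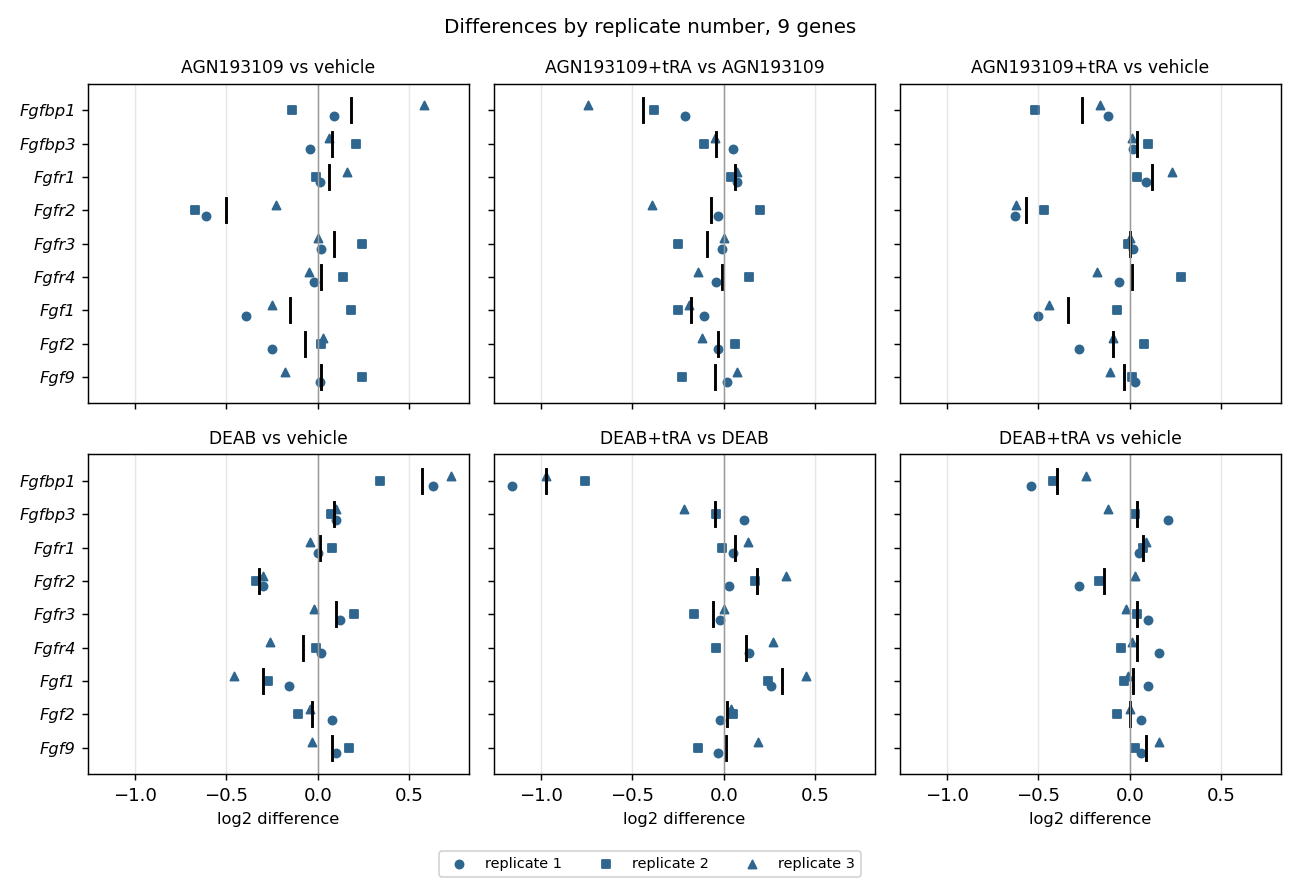
Log2 differences of the 9 genes (rows) in the 6 comparisons (panels), where each symbol is 1 replicate number and each black bar the mean of 3 differences. Fgfbp1 has the widest values, with -1.16 to -0.76 for DEAB and tRA against DEAB, Fgfr2 is below 0 in all replicates of both inhibitor comparisons, and most other genes lie close to 0.

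Fgfbp3, the relative of Fgfbp1 that also binds FGFs, showed no difference of that size. Its 9 arrays of the AGN193109 experiment spanned 7.07 to 7.32, and those of the DEAB experiment spanned 7.28 to 7.53. With DEAB and tRA against DEAB its differences were 0.11, -0.04 and -0.22, a mean of -0.05 (SE 0.07, limma, adjusted p = 0.9457). DEAB alone exceeded vehicle by 0.1, 0.07 and 0.1, but the groups overlapped and the adjusted limma p was 1.0000.

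Among the receptors, Fgfr2 varied most. It encodes the receptor through which collecting duct epithelium and its precursor respond to the mesenchymal ligands Fgf7 and Fgf10. Its log2 levels were 8.96, 8.29 and 8.99 with AGN193109 and tRA, 8.99, 8.09 and 9.38 with AGN193109, and 9.59, 8.76 and 9.61 with vehicle. In each of these groups replicate 2 was the lowest. In the DEAB experiment the levels were 9.31, 10.17 and 10.5 with DEAB and tRA, 9.29, 10 and 10.16 with DEAB, and 9.59, 10.35 and 10.46 with vehicle, and here replicate 1 was the lowest of each group. The means of the replicate numbers spanned 0.94 and 0.97 log2 units in the AGN193109 and DEAB experiments, whereas the means of the groups spanned 0.57 and 0.32.

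Within replicate numbers, Fgfr2 was lower with each inhibitor than with its vehicle. AGN193109 differed from vehicle by -0.61, -0.67 and -0.23, a mean of -0.5 or 0.707-fold. The groups overlapped. The SE was 0.34 and the adjusted limma p 1.0000, and with replicate number as a block the SE was 0.11 and the adjusted p 0.1574. DEAB differed from vehicle by -0.3, -0.34 and -0.3, a mean of -0.32 or 0.804-fold. The SE was 0.35 without the block and 0.07 with it, and the adjusted limma p was 1.0000 and 0.1825 in the same order. Neither difference passed the threshold in either fit. Without the block, single arrays moved both values. That for AGN193109 was -0.14 without its replicate 2, and that for DEAB was -0.05 without its replicate 1. Of all clusters, 2.81% were lower than vehicle in all 6 replicates, and Fgfr2 was the 1 member of the 9 that was.

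With tRA added to AGN193109, Fgfr2 stayed below vehicle in all 3 replicates. With tRA added to DEAB it was above DEAB alone in all 3, and neither difference was called. Lower levels in all 3 replicates were found in 12.9% of all clusters for AGN193109 and tRA against vehicle. Higher levels in all 3 were found in 15.5% for DEAB and tRA against DEAB. AGN193109 with tRA differed from AGN193109 by -0.03, 0.2 and -0.39 (limma, adjusted p = 1.0000, or 0.9993 with the block). It differed from vehicle by -0.63, -0.47 and -0.62, a mean of -0.57 (limma, adjusted p = 1.0000, or 0.2898 with the block). DEAB with tRA differed from DEAB by 0.03, 0.17 and 0.34, a mean of 0.18, with an adjusted limma p of 0.9734, or 0.3525 with the block. DEAB with tRA differed from vehicle by -0.28, -0.17 and 0.03. The effect of tRA with AGN193109 minus that with DEAB was -0.25 (SE 0.53, limma, adjusted p = 0.9998). With the block the SE was 0.14 and the adjusted limma p 0.9994.

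The other 3 receptors, which bind overlapping sets of FGFs, gave no difference that passed the test. Fgfr1 spanned 7.96 to 8.32 and 8.38 to 8.52 in the AGN193109 and DEAB experiments, Fgfr3 spanned 7.64 to 7.89 and 7.94 to 8.22, and Fgfr4 spanned 6.91 to 7.25 and 7 to 7.34. In every group comparison their arrays overlapped. The largest of their mean differences were 0.12 for Fgfr1 with AGN193109 and tRA against vehicle (SE 0.1) and 0.12 for Fgfr4 with DEAB and tRA against DEAB (SE 0.1).

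Fgf1, a ligand that binds all FGF receptors and leaves the cell without a signal peptide, was lowest with DEAB alone, the group in which Fgfbp1 was highest. Its log2 levels were 9.42, 9.52 and 9.7 with DEAB and tRA, 9.16, 9.28 and 9.25 with DEAB, and 9.32, 9.55 and 9.71 with vehicle. The DEAB arrays lay below all arrays of both other groups, and those 2 groups overlapped. DEAB differed from vehicle by -0.16, -0.27 and -0.46, a mean of -0.3 (SE 0.1, limma, adjusted p = 1.0000), or an adjusted p of 0.1825 with the replicate block. DEAB with tRA exceeded DEAB by 0.26, 0.24 and 0.45, a mean of 0.32 (SE 0.1, limma, adjusted p = 0.6014), or an adjusted p of 0.0718 with the block. Neither was called. Groups that did not overlap were found for 3.61% of clusters that were lower with DEAB than with vehicle and for 4.67% that were higher with DEAB and tRA than with DEAB.

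In the AGN193109 experiment the levels of Fgf1 were 8.46, 8.27 and 8.36 with AGN193109 and tRA, 8.57, 8.51 and 8.54 with AGN193109, and 8.96, 8.34 and 8.79 with vehicle. Here tRA was followed by lower levels, since the arrays with tRA lay below those with AGN193109 alone in each replicate, by -0.11, -0.25 and -0.19. The mean of -0.18 (SE 0.14) had an adjusted limma p of 1.0000, and 2.87% of clusters had groups that did not overlap in this direction. The tRA effect with AGN193109 minus that with DEAB was -0.5 (SE 0.18), with an adjusted limma p of 0.9998, or 0.9994 with the block. A lower level in 3 of 3 replicates with AGN193109 and a higher one in 3 of 3 with DEAB was seen in 1.06% of all clusters. AGN193109 with tRA was below vehicle by -0.5, -0.07 and -0.44, a mean of -0.34 (SE 0.14, limma, adjusted p = 1.0000).

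**Figure D3:**
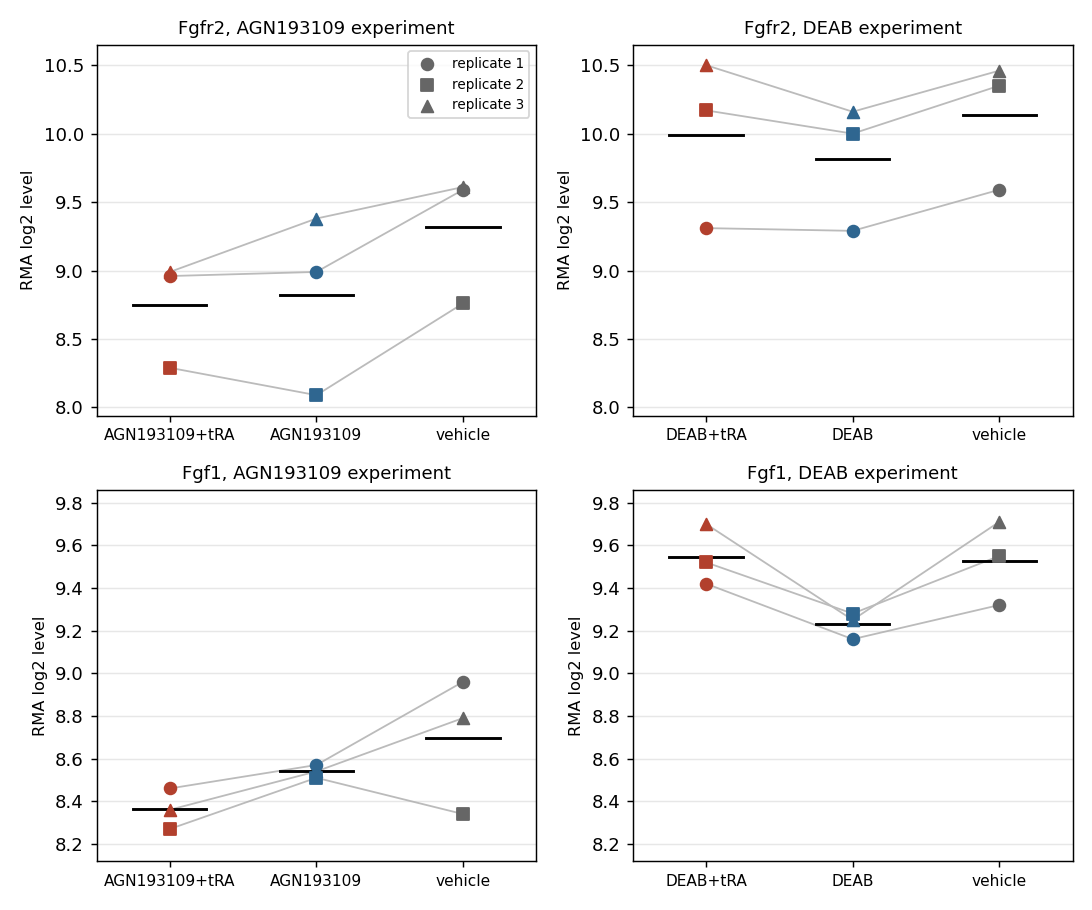
RMA log2 levels of Fgfr2 (top) and Fgf1 (bottom) on each array in the AGN193109 experiment (left) and the DEAB experiment (right), with grey lines joining arrays of the same replicate number and black bars for the means of 3 arrays. The lines of Fgfr2 run apart from each other by replicate number and lie lower with inhibitor than with vehicle, and Fgf1 is lowest with DEAB alone, at 9.16 to 9.28.

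Fgf2, the ligand whose release from the matrix by Fgfbp1 is best described, was dim on these arrays, at percentile 14.9 and 12.5 of all clusters in the AGN193109 and DEAB experiments. It spanned 5.43 to 5.71 and 5.39 to 5.57 log2 units, and such a level limits what a difference can show. Fgf9, a secreted ligand of the developing kidney, spanned 6.9 to 7.2 and 6.98 to 7.2. Its arrays with DEAB and tRA, at 7.07, 7.07 and 7.17, lay above those of vehicle, at 7, 7.04 and 7. The mean difference was 0.09 (SE 0.06, limma, adjusted p = 0.8390), and 4.74% of clusters did not overlap in this direction, as the fibroblast and endothelial marker means given above did not. Over Fgfbp3, Fgfr1, Fgfr3, Fgfr4, Fgf2 and Fgf9, the 36 mean differences lay between -0.09 and 0.12, with a smallest adjusted limma p of 0.8337, or 0.5552 with the block.

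The genes around these 9 in FGF signalling were counted in 7 lists with 104 clusters. No cluster of the lists was called in any of the 6 comparisons without the replicate block. With the block, 3 were called with AGN193109 against vehicle, against 0.457% of all clusters, and 4 with DEAB and tRA against DEAB, against 1.5%. With the block no listed cluster was called in the other 4 comparisons.

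Of the other FGF ligands, 19 clusters were measured, with mean differences between -0.22 and 0.31. Fgf18 was called with the block, with 0.29 more in DEAB and tRA than in DEAB (limma, adjusted p = 0.0277 with the block and 0.7525 without). The replicates gave 0.3, 0.28 and 0.3. With DEAB and tRA against vehicle, 16 of the 19 ligand clusters were above 0, with a median of 0.087, against 11933 of 23410 clusters and a median of 0.002 overall. In the same comparison the means of fibroblast markers did not overlap, at 6.78 to 6.94 with DEAB and tRA and 6.69 to 6.76 with vehicle. Nor did those of endothelial markers, at 6.01 to 6.13 and 5.95 to 5.98 in the same groups. Those of blood markers overlapped, at 6.92 to 7.1 and 6.94 to 7.03. The part of these markers in the result was not tested. In the DEAB experiment 16 of the 19 ligand clusters ranked below percentile 50 of all clusters, with a median percentile of 34.1. Among the 6 co-receptor and receptor-like clusters none was called. Flrt3, which encodes a membrane protein that binds FGF receptors, differed by 0.24 with DEAB and tRA against DEAB (limma, adjusted p = 0.6374, or 0.0744 with the block), and its relative Flrt1 by 0.18 (limma, adjusted p = 0.7728, or 0.4206 with the block).

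Fgfbp1 acts on FGFs held by heparan sulfate, and genes for that polymer were listed next. Of 22 clusters for its synthesis and trimming, Sulf2 was called with the block. Sulf2 encodes an extracellular enzyme that removes sulfate groups from heparan sulfate. Its levels were 9.79, 9.41 and 8.68 with DEAB and tRA and 9.13, 8.81 and 8.32 with DEAB. Replicate 3 was the lowest in both groups, and in each replicate the array with tRA was higher, by a mean of 0.54 (limma, adjusted p = 0.0439 with the block and 0.8759 without). Of 13 clusters for the core proteins that carry heparan sulfate, Gpc1, a membrane-anchored glypican, was called with the block. It measured 11.03, 10.75 and 10.88 with DEAB and tRA and 11.4, 11.18 and 11.17 with DEAB. These groups did not overlap, as 4.54% of all clusters did not in this direction. The mean difference was -0.37 (limma, adjusted p = 0.0224 with the block and 0.2701 without). With AGN193109 and tRA against AGN193109, Gpc1 differed by -0.24, -0.33 and -0.34, a mean of -0.31 (limma, adjusted p = 1.0000, or 0.4084 with the block).

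The FGF and ERK target and feedback genes are induced by receptor signalling and in many cases restrain it. They gave the largest mean difference in the lists, 0.82 with AGN193109 against vehicle. With DEAB and tRA against DEAB their largest size was 0.43, below 0.54 in the list for heparan sulfate synthesis and trimming. With DEAB and tRA against vehicle it was 0.21, below 0.32 in that other list. Of the 21 target and feedback clusters, 17 were above and 4 below 0 with AGN193109 against vehicle. Their median was 0.169, against 0.015 over all clusters. With DEAB against vehicle 17 were above and 4 below 0, with a median of 0.174 against 0. Of all 23410 clusters, 13287 and 11681 were above 0 in these 2 comparisons. With DEAB and tRA against DEAB, 17 of the 21 were below 0, against 10919 of 23410 clusters, with a median of -0.134 against 0.006. With AGN193109 and tRA against AGN193109, 11 were above and 10 below 0, with a median of 0.003 against -0.013. Clusters of 1 gene are included separately, and genes of 1 feedback loop are not independent. The list was also chosen with earlier results of these data known. It holds Egr1, which the paper names among its most up-regulated genes. The counts and medians, and the adjusted p of the listed genes below, are therefore a description.

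With the block, Dusp6, Spry4 and Etv1 were called with AGN193109 against vehicle. Dusp6, the phosphatase that inactivates ERK, measured 11.59, 11.79 and 11.69 with AGN193109 and 10.99, 11.39 and 11.05 with vehicle. The groups did not overlap, as 3.66% of all clusters did not in this direction, and the mean difference was 0.55 or 1.46-fold (limma, adjusted p = 0.0380 with the block and 0.3883 without). In the DEAB experiment, Dusp6 was 0.4 above vehicle with DEAB (limma, adjusted p = 1.0000, or 0.1427 with the block), with no overlap of the groups, against 3.27% of clusters in this direction. Spry4, an inhibitor of receptor tyrosine kinase signalling, measured 9.58, 9.96 and 9.95 with AGN193109 and 8.92, 9.52 and 8.95 with vehicle. Its mean difference was 0.7 or 1.62-fold (limma, adjusted p = 0.0369 with the block and 0.6342 without). One of the 2 clusters of the transcription factor Etv1 differed by 0.82 (limma, adjusted p = 0.0477 with the block and 1.0000 without), and the other by 0.63 (limma, adjusted p = 0.0546 with the block and 1.0000 without).

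Of 13 clusters for signal transduction below the receptors, none was called in any fit, and their mean differences lay between -0.19 and 0.17. The lowest was that of the ERK kinase gene Map2k2 with AGN193109 against vehicle, -0.19 (limma, adjusted p = 1.0000, or 0.6944 with the block), and the highest was that of Nras, which encodes a RAS protein, with AGN193109 and tRA against vehicle, 0.17 (limma, adjusted p = 1.0000, or 0.9751 with the block). Of the 10 clusters for splicing regulators, 1 was called with the block. This was Esrp2, an epithelial splicing factor that favours the epithelial isoform of Fgfr2. It measured 10.75, 10.97 and 10.97 with DEAB and tRA and 11.06, 11.31 and 11.27 with DEAB. These groups did not overlap, as 4.54% of all clusters did not in this direction. The mean difference was -0.32 (limma, adjusted p = 0.0087 with the block and 0.5289 without). With AGN193109 and tRA against AGN193109 the arrays of Esrp2 did not overlap either, as 2.87% of all clusters did not in this direction. The mean difference was -0.38 (limma, adjusted p = 1.0000, or 0.3914 with the block). The gene-level clusters do not tell the isoforms of Fgfr2 apart.

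**Figure D4:**
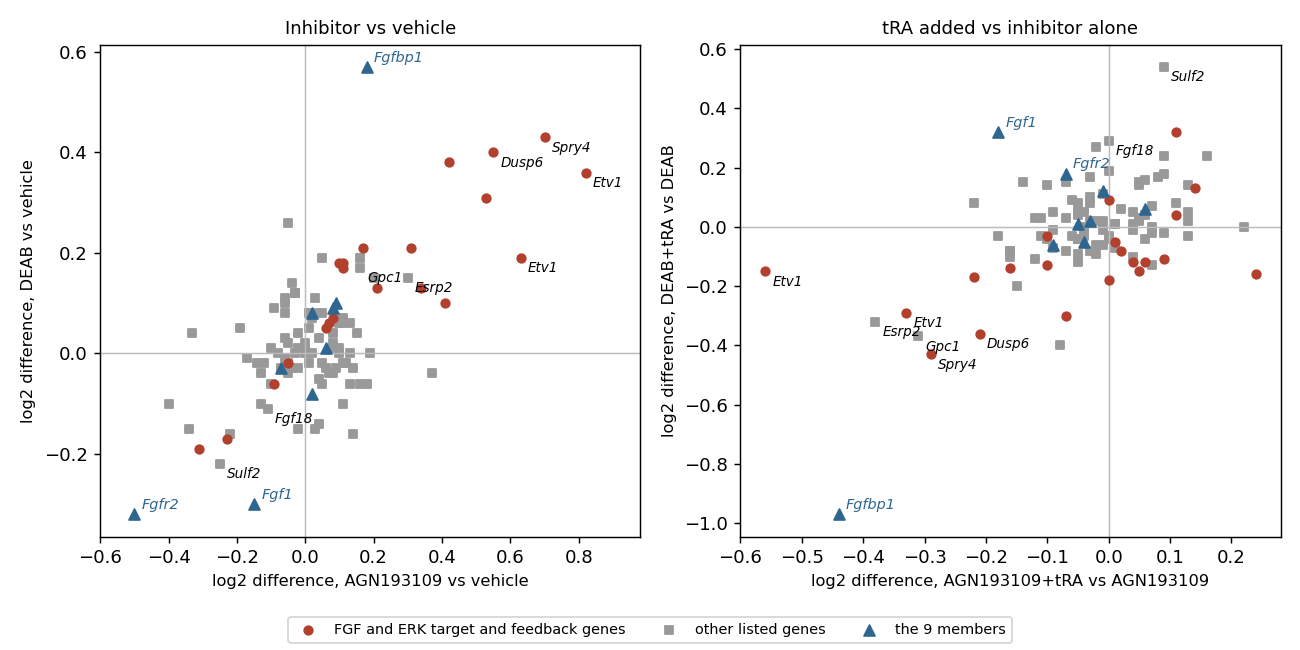
Mean log2 difference in the AGN193109 experiment (horizontal axis) against that in the DEAB experiment (vertical axis) for the 104 listed clusters and the 9 members, for inhibitor against vehicle (left) and tRA added against inhibitor alone (right). Each symbol is 1 cluster, red circles are FGF and ERK target and feedback genes, grey squares other listed genes and blue triangles the 9 members. Most red circles on the left are above 0 on both axes, and Fgfbp1 on the right lies at -0.44 and -0.97.

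The clusters whose levels followed Fgfbp1 most closely were taken from the correlation over the 18 arrays, each centred on the mean of its experiment. These arrays share treatments and replicate numbers, so the values are a description. The 5 highest were Shb (Pearson r = 0.929), an adaptor protein of receptor tyrosine kinases, Niban2 (0.9), Jade2 (0.848), Tiam2 (0.839), an activator of Rac, and Adamts1 (0.838), a secreted protease. The range from the 5th to the 95th percentile over the 23409 other clusters was -0.482 to 0.446. The 5 lowest were Gstm4 (-0.887), Sox8 (-0.828), Fgf5 (-0.825), Gdpd1 (-0.825) and Gstm6 (-0.821). All of these highest and lowest genes but Adamts1 had a larger r in size on the DEAB arrays than on the AGN193109 arrays. For Gstm6 the values were -0.936 and -0.493, for Jade2 0.956 and 0.719, and for Adamts1 0.825 and 0.869 in that order. Gstm4 and Gstm6 encode glutathione transferases of 1 gene family, whose probes may share targets.

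Fgf5, a secreted ligand, was 1 of these 5. It was picked by its correlation over these same arrays, so a pattern opposite to that of Fgfbp1 follows from the choice. The values, shares and adjusted p of Fgf5 below are therefore a description. In both experiments its mean was lowest with the inhibitor alone, the group in which that of Fgfbp1 was highest. Its levels were 8.38, 8.5 and 8.56 with DEAB and tRA, 8.11, 8.38 and 8.21 with DEAB, and 8.38, 8.4 and 8.4 with vehicle. With AGN193109 and tRA they were 8.24, 8.52 and 8.58, with AGN193109 8.17, 8.4 and 8.28, and with vehicle 8.42, 8.47 and 8.6. Each inhibitor group lay below its vehicle group without overlap (8.38 with DEAB and with vehicle is equal only as rounded), as 2.36% and 3.61% of clusters did with AGN193109 and DEAB, by means of -0.22 with AGN193109 and -0.16 with DEAB, and neither was called (limma, adjusted p = 1.0000 for each, or 0.5766 and 0.5639 with the block). Among the listed pathway genes the highest correlations with Fgfbp1 were those of Gpc1 (0.8) and Sdc1 (0.644). Both encode heparan sulfate proteoglycans, but the 13 clusters of that list ranged from -0.655 (Gpc5) to 0.8. The other 8 members had correlations between -0.394 and 0.128.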

How the data were processed

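Total RNA of mIMCD-3 cells was labelled and hybridised to 18 Affymetrix Mouse Gene 1.0 ST arrays. The authors normalised the arrays with the Robust Multichip Average (RMA) in Affymetrix Expression Console (version not given in the sources used here) and deposited log2 values for 35556 transcript clusters. These were used as deposited, and 23410 clusters with a gene symbol were tested. Arrays were grouped by their titles, with the short names of the vehicle arrays showing their experiment. Group means were fitted per experiment (9 arrays) with limma 3.58.1 in R 4.3.3, two-sided, with Benjamini-Hochberg adjustment over all 23410 clusters, and calls were made at adjusted p under 0.05. Precision is limited by the number of arrays. The median SE of a difference was 0.104 with AGN193109 and 0.0699 with DEAB, and an exact permutation test of 3 against 3 arrays could not go below p = 0.1. Differences by replicate number pair arrays of the same biological replicate.

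Same-numbered arrays deviated together: each of the 9 pairs per experiment had a residual correlation over 0.1 (0.198 to 0.645 for AGN193109, 0.179 to 0.614 for DEAB), against -0.575 to 0.205 and -0.511 to 0.312 for arrays of unlike number. Fits with replicate number as a block are therefore printed beside the others for many results. Where only 1 fit is printed, it is the one without the block. The members and gene lists were chosen with earlier results of these data known. The counts and adjusted p of the lists are therefore a description. The rule for named genes took all 9 members, up to 3 called clusters of each list, or the 2 with the smallest p where none was called, and the 5 clusters most and least correlated with Fgfbp1. Sdc1, Gpc5, Fgf7 and Fgf10 were named outside it. Some listed genes were not analysed here. Alternatives were the block, quantile normalisation, median centring, a filter on dim clusters (under the 30th percentile), all clusters, other array subsets, trended or robust variances, and each array left out. The fit was tested on simulated data. Positions and promoter windows are from RefSeq (GRCm38.p6), matched by gene ID and symbol. Plots used matplotlib 3.10.9 (Python 3.11.15).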

Additional observations from a re-analysis of the deposited data

Results flagged for a closer look

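Fgf1 was lower with AGN193109 and tRA than with AGN193109 in every replicate and higher with DEAB and tRA than with DEAB in every replicate, by means of -0.18 and 0.32 on the log2 scale. The difference between the experiments was -0.5 (limma, adjusted p = 0.9998, or 0.9994 with replicate number as a block), so it did not pass the test, and the tRA doses were 0.2 µM and 0.01 µM. Sulf2 was lower with AGN193109 and tRA than with vehicle in every replicate (-0.15) and higher with DEAB and tRA than with vehicle in every replicate (0.32). Its difference between the experiments was -0.47 (limma, adjusted p = 0.9998, or 0.5491 with the block), which did not pass the test either.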

How the results depend on the processing

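Under the alternatives run, 1672 values stayed on their side of the threshold and 8 counts of calls moved. The differences of Fgfbp1 in the 6 comparisons, and those of Fgfr2 for each inhibitor against vehicle, kept their direction under every alternative run, except that the Fgfbp1 difference for AGN193109 against vehicle, 0.18, was 0 without vehicle replicate 3. The size of the Fgfr2 differences was less steady without the block, where leaving out 1 array keeps the others of its replicate number. By replicate number these differences were -0.61, -0.67 and -0.23 for AGN193109 and -0.3, -0.34 and -0.3 for DEAB. When each array was left out without the block, that for AGN193109 against vehicle, -0.5, lay between -0.78 and -0.14 (without AGN193109 replicate 2), and that for DEAB against vehicle, -0.32, between -0.59 and -0.05 (without DEAB replicate 1). Small differences of other members, and those of Fgfr2 with tRA added (-0.44 to 0.21 for AGN193109 and -0.09 to 0.52 for DEAB when each array was left out without the block), changed sign without being called in any setting. The count of members called with DEAB and tRA against DEAB, 1 (Fgfbp1), was 0 when only the 6 arrays compared were fitted and 0 to 1 when each array was left out. These values chose Fgfbp1, so the count is no test and its changes say nothing about stability. The log2 difference itself stayed between -1.09 and -0.85. With the replicate block, 3 listed pathway clusters were called with AGN193109 against vehicle and 4 with DEAB and tRA against DEAB, where none was called without it, and the block changed no other call of a member or listed gene. With the block, calls over all clusters were 107 against 16 for AGN193109 against vehicle, 19 against 5 for AGN193109 and tRA against AGN193109, 71 against 8 for DEAB against vehicle and 351 against 76 for DEAB and tRA against DEAB. Fgf2 was dropped by the filter on dim clusters and has no value there.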
